A study of Rattus norvegicus with 12 samples.

Results

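Gene expression in the striatum of rats that had breathed 3000 ppm carbon monoxide (CO) was set against that of a rat that had breathed air, on arrays of a single slide. The comparison took 4 of the 12 arrays of the series, chosen by their titles: 1 array of a rat killed right after breathing air (0 h), and 1 array each of rats killed 0, 2 and 6 h after 3000 ppm CO. Every exposure lasted 40 minutes, and every rat was a male Sprague-Dawley of 235 to 265 g. All were anesthetized with pentobarbital (50 mg/kg) and perfused with chilled saline before the striata of both sides were dissected, so each array held RNA from 1 animal. The other 8 arrays came from rats at 0, 2, 6 and 12 h after 1000 ppm CO, at 12 h after 3000 ppm CO, and at 0, 2 and 6 h after 5% O2. They lay on 2 other slides that were scanned in a later session, and they are used here for context: to place the air array among 12 and to give the values of some genes and lists on them. The labels give no age and no air-breathing rat at 2 or 6 h. Exposure, time after exposure, the individual rat, its dissection and the position on the slide therefore cannot be told apart in any difference given here, and in bulk tissue fewer cells of a type cannot be told apart from less RNA per cell.

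CO binds hemoglobin far more tightly than oxygen does, so blood that has taken it up carries less oxygen and releases it less readily. It also binds other heme proteins, including the cytochrome oxidase of mitochondria. The striatum, the input nucleus of the basal ganglia, consists mainly of GABAergic medium spiny neurons, and it borders the lateral ventricle with its choroid plexus, the septum and, behind, the thalamus. The basal ganglia are among the regions known to be injured in CO poisoning.

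A level is given below as the processed signal of a probe in percent of the 75th percentile of that array, so that levels can be compared between arrays but not between genes. A difference is the log2 of the ratio of 2 such levels, and a gene was counted when it was at least 2-fold (1 log2 unit) from air and the brighter of the arrays compared was well above background. On the 4 arrays 75.6% to 78.7% of spots were well above background and 0 were saturated, and the 75th percentile lay between 624 and 806 intensity units. The genes tested were the 27829, out of 35178 on the array, whose signal was well above background on 1 or more of these 4 arrays; 13673 of them have a gene symbol, and 24703 were measured on all 4. The median difference from air over all of them was 0.03 at 0 h, 0.05 at 2 h and 0.08 at 6 h. The only technical spread that can be read from the files is that of 263 probes printed 10 times on each array, whose log2 values had a median SD of 0.058 to 0.061. That spread does not include differences between rats. The gene lists used below were chosen with earlier results of these data known, so their counts are descriptions and not independent support. All 20 medium spiny neuron markers were well above background on all 4 arrays, among them the dopamine receptor genes Drd1 (49.7% of the 75th percentile in air, then 53.0%, 64.6% and 70.0% at 0, 2 and 6 h) and Drd2 (57.9%, 67.0%, 92.9% and 89.2%).

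At 0 h, 566 genes were at least 2-fold above air and 567 below it, which is 2.03% and 2.04% of the genes tested and 4.07% together. At 2 h there were 710 above (2.55%) and 965 below (3.47%), together 6.02%, and at 6 h 1020 above (3.67%) and 947 below (3.4%), together 7.07%. Between the exposed arrays themselves, which does not involve the air array, 508 genes were higher (1.83%) and 600 lower (2.16%) at 2 h than at 0 h. Against 2 h, 423 (1.52%) were higher and 295 (1.06%) lower at 6 h, and 629 (2.26%) were higher and 610 (2.19%) lower at 6 h than at 0 h. The 3 largest differences above air among genes with a symbol measured on all 4 arrays were Apold1 (4.09), Atf3 (3.92) and Ccn1 (3.82) at 0 h. At 2 h the leading genes were Robo3 (3.61), Fcrl2 (3.39) and S100a8 (3.36). Globin genes led at 6 h, Hbb with 5.30, Hba-a3 with 4.88 and Hbb-b1 with 4.65. Farthest below air at 0 h lay Mfrp (−4.70), Kcnj13 (−4.67) and Sostdc1 (−4.60). For 2 h the list read Sostdc1 (−6.98), Scgb1c1 (−6.90) and Mfrp (−6.81), and for 6 h Glycam1 (−6.28), Scgb1c1 (−6.06) and Mfrp (−5.72). The leading genes above air thus differed from hour to hour, while Mfrp, which encodes a frizzled-related membrane protein, was among the 3 lowest at all 3. The split at 6 h depended on the scaling: 51.9% of the genes past 2-fold were above air here, 37.7% after quantile normalization and 40.6% with the authors' deposited log2 values.

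Higher than air at all 3 hours were 85 genes, 0.305% of those tested, of which 21 had a symbol and 15 of these were measured on all 4 arrays. The counts at the 3 hours share 1 air array, so a gene that happened to be low in that rat would be counted too. In 45 of the 85 genes (52.9%) the air array was the lowest of all 12 arrays, against 9.62% of all genes tested. Because the 85 genes were picked for a low air array, the rule itself raises this share. The share over all genes tested is therefore not a like baseline for it. With the median of the 12 arrays in place of air, 98 genes were higher at all 3 hours, and 4 of them were among the 85. Leaving out the 0 h array raised the count to 322, leaving out 2 h gave 200 and leaving out 6 h gave 125. For the 85 genes there were 0 second probes well above background on all 4 arrays.

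Clcf1, a cytokine of the interleukin-6 family that acts on neurons and B cells, has its probe at chr1:206806002-206806061 (rn4). It stood at 14.5% of the 75th percentile in air and at 45.4%, 55.2% and 70.4% at 0, 2 and 6 h. Every exposed array was above air, by 3.13-, 3.80- and 4.85-fold, and a second probe, dim in air alone, was above it too at each hour. Over the 7 arrays of the other exposures Clcf1 ranged from −0.93 to 3.55 log2 units against air. Ch25h, which makes 25-hydroxycholesterol, an oxysterol of innate immunity, was at 13.8% in air and at 40.9%, 54.9% and 48.2% after CO. Its differences of 1.57, 1.99 and 1.80 lay within the range of the 7 other arrays, 0.77 to 2.14. Gpd1, the glycerol-3-phosphate dehydrogenase of the cytosol, was at 17.7% in air and at 96.2%, 44.1% and 44.9%, highest at 0 h with a difference of 2.44. Col7a1, the collagen of anchoring fibrils, was at 3.96% in air and at 10.02%, 10.9% and 13.3%.

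S100a8 and S100a9, which encode the 2 subunits of calprotectin, a protein abundant in neutrophils, were highest at 2 h. S100a8 was at 2.35% in air, 7.30% at 0 h, 24.1% at 2 h and 6.48% at 6 h. The levels of S100a9 were 3.36%, 8.39%, 27.3% and 9.36%. Both were thus 10.3- and 8.13-fold above air at 2 h and 2.50- to 3.11-fold above it at 0 and 6 h. Of the other S100a8 probes, 1 was well above background on 1 array, with a difference of 3.24 at 2 h, and 1 on none. The other leading members with a symbol were Mfsd10, a membrane transporter gene, with differences of 2.33, 2.24 and 1.52, and Or52e8b, an olfactory receptor gene, with 1.29, 2.85 and 3.05. Or9i16, another olfactory receptor gene, and Upk1b and Ocm also belonged to the 15.

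Hspa1b, an inducible heat shock 70 gene, was at 31.3% in air and at 81.0%, 69.1% and 82.4% after 3000 ppm CO, with differences of 1.37, 1.14 and 1.40. All 3 exposed arrays of this slide were above air, whereas 12 h after 3000 ppm CO the difference was −0.74 and in the 7 arrays of the other exposures it lay between −1.49 and −0.54. Its near-identical copy Hspa1a, whose probe may share transcripts with it, stood at 0.62, 0.67 and 0.77. The other members of the heat shock list stayed at or below 0.23 at every hour. At each hour 1 of its 20 members was at least 2-fold above air, and 0 below. Over all genes tested, 2.03%, 2.55% and 3.67% were above. The list's median was −0.12, −0.26 and −0.37, and Hsp90aa1, the inducible form of Hsp90, was at −0.16, −0.42 and −0.58. Just inside the threshold for all 3 hours was Lst1, a leukocyte gene (1.17, 1.76 and 1.04), and just outside it P2ry12, the purinergic receptor of microglia (1.02, 0.97 and 1.198). Of the genes not well above background in air, Csap1 was at least 17.5-, 7.21- and 4.02-fold higher at 0, 2 and 6 h, Myh15 at least 4.12-, 3.198- and 4.83-fold, and Col24a1 at least 2.23-, 2.36- and 3.39-fold. Such a bound sets the level after CO against the higher of the dim probe's own signal in air and the lowest signal counted there as well above background.

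Lower than air at all 3 hours were 368 genes (1.32%), 192 of them with a symbol and 119 of these measured on all 4 arrays. In 286 of the 368 (77.7%) the air array was the highest of all 12, against 7.68% of all genes tested. At 12 h after 3000 ppm CO, 330 were also at least 2-fold below air, as were 1333 of the 27829 genes tested. The group was picked for a high air array, which both counts use, so the rule itself raises both shares. With the median of the 12 arrays as reference 17 genes were lower at all 3 hours, 13 of them among the 368. Without the 0 h array the count was 712.

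The leading genes of this group are known from the choroid plexus, the epithelium that secretes cerebrospinal fluid. Mfrp, with its probe at chr8:47087814-47087873 (rn4), was at 274% of the 75th percentile in air and at 10.5%, 2.44% and 5.20% at 0, 2 and 6 h. Kcnj13, an inward-rectifier potassium channel gene, was at 1219% in air and at 47.9%, 18.4% and 34.7%. Sostdc1, an antagonist of BMP and Wnt signals, was at 3153% in air and at 130%, 25.0% and 78.5%. In all of these the air array was far above the others and 2 h was the lowest of the exposed arrays. The same order held for Pla2g5, a secreted phospholipase (133%, 6.78%, 2.58% and 5.07%), F5, coagulation factor V (239%, 16.7%, 4.16% and 7.59%), and Folr1, the folate receptor that carries folate into cerebrospinal fluid (600%, 46.0%, 21.7% and 25.0%). Aqp1, the water channel of the plexus, was at 379% in air and at 18.5%, 14.6% and 21.2%. Cox8b, a cytochrome oxidase subunit gene, was at 428% in air and nearly level afterwards, at 28.1%, 30.5% and 33.2%. Cnmd was at least 596-fold and 601-fold lower at 2 and 6 h, where it was not well above background, and Cltrn and Cldn2 at least 103-fold and 125-fold lower at 2 h.

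Of the 20 choroid plexus markers, all measured, 19 were at least 2-fold below air at 0, 2 and 6 h alike. The share of all genes tested was 1.32%, and the list's median was −3.63, −4.74 and −4.34. Their summed signal was 64034% of the 75th percentile in air and 6781%, 2921% and 4001% after CO. On the other slides it ran from 1879% right after 1000 ppm CO to 52903% at 6 h after 5% O2. At 6 h after 1000 ppm CO it was 41276%, and at 12 h after 3000 ppm CO 2382%. The markers well above background numbered 20 in air and 18, 14 and 16 after CO. Ttr, the thyroxine carrier of cerebrospinal fluid and the most abundant transcript of this tissue, was at 42994% in air and at 3635%, 716% and 1869%. In air Ttr made up most of the list's summed signal. The exception was Slc39a4, a zinc transporter gene, at 0.07, 0.15 and 0.33. Ependymal markers, of the ciliated lining of the ventricle, were also lower, with medians of −0.53, −1.12 and −1.43. At 0, 2 and 6 h, 1, 6 and 7 of 9 were at least 2-fold below air, against 2.04%, 3.47% and 3.4% of all genes tested. How much of the group of 368 moved with the choroid plexus in the dissected tissue was not tested. Just inside the threshold was Prps2 (−1.10, −1.09 and −1.004) and just outside Ctsc, a lysosomal protease gene (−1.46, −1.33 and −0.996). Only 29 genes of this group had second probes well above background on all 4 arrays. Of those probes, 33 of 33 pointed the same way and 26 were past 2-fold at all 3 hours.

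**Figure D1:**
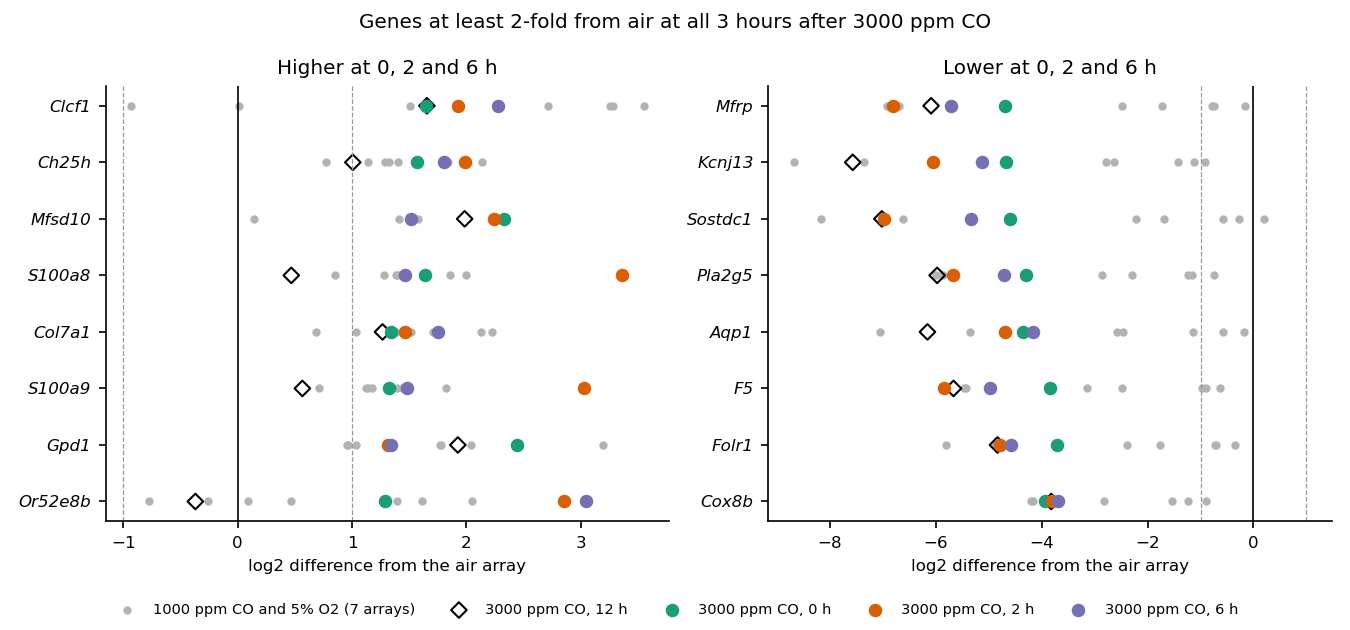
Log2 difference from the air array (horizontal axis) for the 8 leading genes higher (left) and lower (right) at 0, 2 and 6 h after 3000 ppm CO, 1 rat per point. Green, orange and purple points are 0, 2 and 6 h, open diamonds 12 h after 3000 ppm CO on another slide, grey points the 7 arrays of 1000 ppm CO and 5% O2, and dashed lines mark 2-fold. Most grey points lie on the same side of air as the coloured ones, for example between 0.77 and 2.14 for Ch25h and between −8.69 and −0.91 for Kcnj13.

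Of the 8 leading genes that were high right after exposure and near air or below it at 6 h, 5 were immediate early genes, whose transcription starts fast and needs no new protein. In all, 138 genes (0.496%) were at least 2-fold above air at 0 h, at least 2-fold lower at 6 h than at 0 h with 2 h between them, and not 2-fold below air at 6 h. Of these, 92 were not well above background on some array and 46 were measured on all 4. Apold1, an endothelial early response gene probed at chr4:171907496-171907555 (rn4), was at 31.6% of the 75th percentile in air, 538% at 0 h, 50.8% at 2 h and 45.0% at 6 h. Ccn1, a secreted matrix protein, was at 13.1% in air, 186% at 0 h, 8.98% at 2 h and 8.79% at 6 h. Of the 4 arrays of this slide, both were thus high on the 0 h array alone, 17.0- and 14.2-fold above air. The second Ccn1 probe showed the same order with a smaller difference at 0 h, 1.42, and −0.74 and −0.82 later. On the other slides both genes were also high right after exposure. Apold1 was at 3.34 right after 1000 ppm CO and 4.96 right after 5% O2, and Ccn1 at 4.18 and 4.01.

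Btg2, an antiproliferative gene, was at 80.5% in air, 784% at 0 h, 88.4% at 2 h and 83.3% at 6 h, back within 1.1-fold of air. Dusp1, which dephosphorylates MAP kinases, was at 19.4%, 99.3%, 15.3% and 13.3%. Klf4, a transcription factor of endothelium and of growth arrest, was at 71.9%, 299%, 47.8% and 39.0%. Depp1, a FOXO-regulated gene of autophagy, was at 51.7% in air, 444% at 0 h, 125% at 2 h and 56.8% at 6 h, so that 2 h was still 2.42-fold above air. Sgca, a sarcoglycan gene (2.44, 0.30 and 0.22), and Zscan25, a zinc finger gene (2.13, 0.27 and 0.10), had the same shape. Cabp5, Morc1 and Osm were well above background only at 0 h, where they were at least 8.29-, 6.17- and 4.92-fold above air. Cd300a lay just inside the criteria (1.04, 0.80 and 0.03) and Arrdc2 just outside (1.08, 0.13 and 0.09).

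Of 37 measured immediate early genes, 13 were at least 2-fold above air at 0 h and 0 below. At 2 h 2 were above and 3 below, and at 6 h 0 were above and 7 below. The shares over all genes tested were 2.03%, 2.55% and 3.67% above air and 2.04%, 3.47% and 3.4% below. The list's median was 0.54, −0.05 and −0.25, and the members differed widely. On the other slides the median was 0.31 right after 1000 ppm CO and 0.48 right after 5% O2. Atf3, a stress-induced transcription factor, had the second largest difference of the list at 0 h, with 17.5% in air and 265%, 18.3% and 19.8% after CO. It did not count as fading only because 6 h was slightly above 2 h. Zfp36, which marks mRNAs for decay, was at 2.94% in air, 23.9% at 0 h, 3.66% at 2 h and 4.45% at 6 h. Ier2, a nuclear early response protein, was at 214%, 779%, 278% and 228%. Other members were closer to air at 0 h, among them Arc at 0.18, Egr1 at 0.27 and Egr4 at 0.02, and Npas4 was well above background only at 6 h.

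The members at least 2-fold below air at 6 h were Fos, Egr2, Egr4, Nr4a1, Nr4a3, Klf2 and Dusp5, and all 7 belonged to the genes growing below air described next. Fos was at 132% in air, 307% at 0 h, 58.6% at 2 h and 55.5% at 6 h, that is 1.21 above air at 0 h and −1.26 at 6 h on the log2 scale. Nr4a1, a nuclear receptor gene of the early response, was at 900% in air, 1719% at 0 h, 374% at 2 h and 336% at 6 h. Klf2, a flow-responsive endothelial factor, was at 1.71, −0.98 and −1.003. Egr2, by contrast, was at air level at 0 h (0.18) and at −1.501 and −2.01 later. Ccn2, a relative of Ccn1, was highest at 2 h, with 1.12, 1.99 and 0.74, and so was Nr4a2 (0.15, 1.52 and 0.91), which is also a marker of deep cortical neurons.

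A known route to immediate early genes is phosphorylation of CREB, which binds the cyclic AMP response element. Because several of these genes were high together at 0 h, the palindromic element TGACGTCA, which reads the same on both strands, was searched in the 300 bases from 250 before to 50 after the gene start (RefSeq, GRCr8). It was found for 3 of the 34 genes fading from above air that had a promoter in the table (8.82%), against 612 of 33469 promoters in all (1.83%). It was also found for 2 of 14 genes higher at all 3 hours (14.3%) and 1 of 153 lower at all 3 hours (0.65%). For genes growing below air it was 2 of 98 (2.04%), with 0 of 63 growing above and 0 of 20 fading from below. The groups counted 1 promoter per gene and the total counted every promoter, so these shares are not in like units. The groups came from these same data, and the difference in share was not tested. A match describes the letters and is no evidence of binding. The 3 matches are shown with 40 bases on either side, on the strand of the gene and with the element in capitals. Their differences from air at 0, 2 and 6 h were 3.28, 0.13 and 0.05 for Btg2, 2.36, −0.34 and −0.55 for Dusp1 and 1.86, 0.38 and 0.09 for Ier2.
Btg2, chr13:48087844-48087931, minus strand: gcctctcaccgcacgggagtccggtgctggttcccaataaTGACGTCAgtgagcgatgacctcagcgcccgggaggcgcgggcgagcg
Dusp1, chr10:17184689-17184776, plus strand: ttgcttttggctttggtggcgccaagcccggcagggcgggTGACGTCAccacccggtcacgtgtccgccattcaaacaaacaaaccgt
Ier2, chr19:40399267-40399354, plus strand: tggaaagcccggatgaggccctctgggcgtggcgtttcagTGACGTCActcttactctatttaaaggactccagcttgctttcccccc

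Growing below air were 221 genes (0.794%), 56 of them dim on some array. Each was at least 2-fold below air at 6 h and at least 2-fold lower at 6 h than at 0 h, with 2 h between them. Of second probes for these genes, 23 of 26 were lower at 6 h than at 0 h, 14 of them at least 2-fold. Most leading members were low on the 2 h and 6 h arrays alike. Slc17a6, the vesicular glutamate transporter of thalamic and other subcortical neurons, has its probe at chr1:101465828-101465887 (rn4) and was at 731% of the 75th percentile in air, 686% at 0 h, 24.1% at 2 h and 19.7% at 6 h. Calb2, the calcium-binding protein calretinin, was at 1691%, 1296%, 192% and 132%. Frem3, an extracellular matrix gene, was at 103%, 71.5%, 9.23% and 5.44%. In each of these the air and 0 h arrays lay together and the 2 h and 6 h arrays lay together far below.

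Neuropeptide genes of the hypothalamus were part of the same group. Avp, the vasopressin gene, was at 175% in air, 396% at 0 h, 19.2% at 2 h and 18.3% at 6 h. Oxt, the oxytocin gene, was at 401%, 171%, 18.0% and 18.0%, and Trh, the thyrotropin-releasing hormone gene, at 273%, 356%, 44.3% and 37.8%. By the probes used, all 3 were more than 6-fold below air at 2 and 6 h, and before that Avp was above air, Oxt below it and Trh close to it. The second Avp probe, measured on all 4 arrays, gave 1.14, −2.69 and −1.68, so that 6 h was not below 2 h. Hdc, which makes histamine, was at −0.93, −1.89 and −2.04. Pmch, the melanin-concentrating hormone gene, was at 61.5%, 372%, 18.7% and 19.1%, the same order except that 6 h was not below 2 h. Of 15 measured hypothalamic peptide genes, 1, 6 and 7 were at least 2-fold below air at 0, 2 and 6 h and 2, 0 and 0 above. Their median was −0.09, −0.49 and −0.77. Among all genes tested, 2.04%, 3.47% and 3.4% were at least 2-fold below air and 2.03%, 2.55% and 3.67% above. Pomc (−0.17, −0.14 and −0.45) and Npvf (0.02, 0.04 and 0.12) stayed within 2-fold of air.

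Fam111a and Odad1 differed in shape from these. Fam111a, a protease gene of DNA replication, was at 120% in air, 48.0% at 0 h, 45.3% at 2 h and 3.94% at 6 h, so the low value was at 6 h. Its second probe gave −1.44, −1.34 and −4.26. Odad1, a gene of ciliary dynein docking, was at 4.13% in air, 19.5% at 0 h, 2.15% at 2 h and 1.89% at 6 h. Of genes that were not well above background at 2 and 6 h, Shox2 was at least 106.5- and 117-fold, Lhx9 at least 21.9- and 24.1-fold and Smpx at least 6.70- and 7.38-fold below air. Shox2 and Lhx9 encode transcription factors of thalamic and other diencephalic neurons. The second Lhx9 probe, measured on all 4 arrays, gave smaller differences of −0.16, −1.48 and −1.16. Mxra7 lay just inside the criteria (−0.41, −1.30 and −1.41) and Akap14 just outside (−0.59, −1.49 and −1.58).

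Of 16 measured markers of septal and thalamic neurons, 0 were at least 2-fold from air at 0 h. At 2 h 9 were below and at 6 h 11, against 3.47% and 3.4% of all genes tested, and 9 belonged to the genes growing below air. The list's median was −0.06, −1.51 and −2.01, and it was 0.69 at 12 h after 3000 ppm CO, on another slide. With 1000 ppm CO the median was −2.11 (0 h), −2.19 (2 h), 0.51 (6 h) and −0.38 (12 h). The 5% O2 arrays had medians of 1.23 (0 h), −0.04 (2 h) and −0.52 (6 h). The lowest medians of 1000 ppm CO thus came at 0 and 2 h, and how the list depends on time was not tested. The summed signal of these markers was 2986% of the 75th percentile in air and 2871%, 865% and 792% after 3000 ppm CO. The markers well above background numbered 16 in air and 16, 13 and 13 at 0, 2 and 6 h. Prkcd, a protein kinase C of thalamic relay neurons, was at 995%, 982%, 175% and 148%, and Tcf7l2, a thalamic transcription factor, at 189%, 192%, 41.4% and 48.5%. Zic1, a transcription factor of the septum, was at 134%, 100%, 26.5% and 21.2%. Lhx2 was the member highest above air at 6 h, at 0.64.

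Markers of cortical neurons, of striatal neurons and of oligodendrocytes were set beside the septal and thalamic ones. Cortical neuron markers had medians of 0.04, 0.87 and 0.68. At 2 h, 7 of 15 were at least 2-fold above air, against 2.55% of all genes tested. Slc17a7, the cortical vesicular glutamate transporter, was at 45.9% in air, 19.7% at 0 h, 260% at 2 h and 180% at 6 h. Medium spiny neuron markers had medians of 0.22, 0.64 and 0.64, and all 20 were above air at 2 and 6 h, from 0.29 to 1.05. Striatal interneuron markers had medians of −0.01, 0.03 and 0.01 and a summed signal of 6726%, 5973%, 5734% and 5146%. Of these, Pvalb, the parvalbumin gene, was at 494%, 604%, 135% and 115%, and Calb2 at 1691%, 1296%, 192% and 132%. Oligodendrocyte markers had medians of 0.39, −0.40 and −0.30. The 2 h and 6 h arrays thus held more summed signal of medium spiny and cortical neuron markers than the air and 0 h arrays. They held less of septal and thalamic and of hypothalamic ones. The summed signal of striatal interneuron markers was lower there too, but it includes Pvalb and Calb2, and the list's medians stayed near 0. How much of the groups growing with time moved with these markers was not tested.

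**Figure D2:**
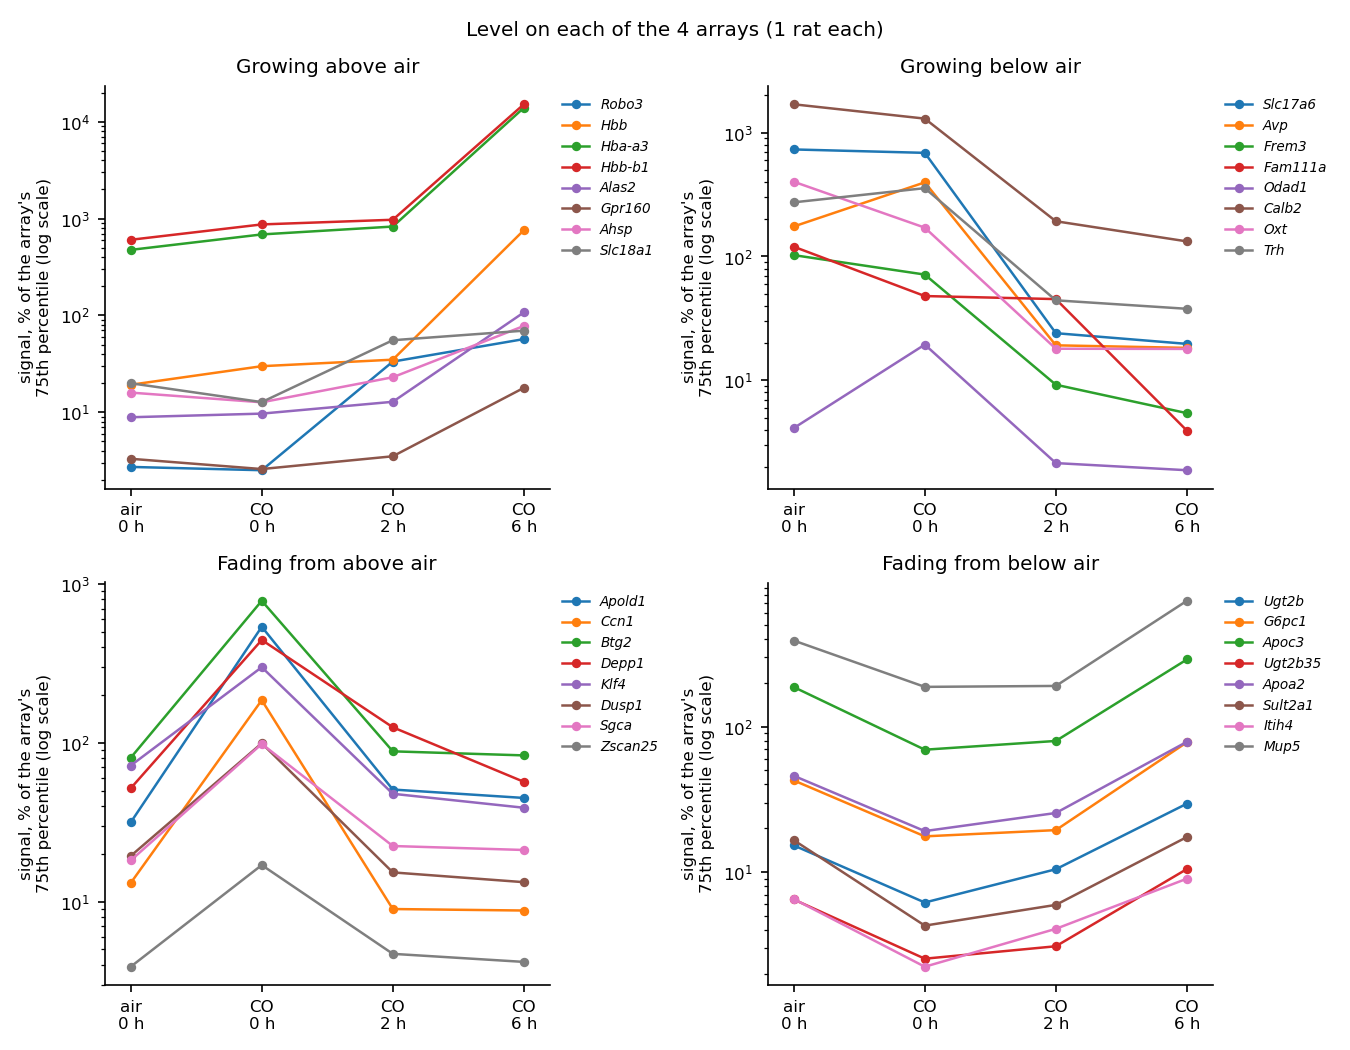
Level on the 4 arrays of the slide (vertical axis, signal in percent of the array's 75th percentile, log scale) for the 8 leading genes of each time pattern, 1 rat per point. Genes fading from above air are highest at 0 h, and Depp1 is still 2.42-fold above air at 2 h; most genes growing below air are low at 2 and 6 h, and the globin genes are high at 6 h alone.

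Growing above air were 194 genes (0.697%), 61 of them dim on some array, and the 3 farthest above air at 6 h among those with a symbol measured on all 4 arrays were globin genes of red blood cells. Hbb-b1, probed at chr1:161590680-161590739 (rn4), and Hba-a3, both globin genes, were at 604% and 475% of the 75th percentile in air, at 870% and 686% at 0 h, at 972% and 827% at 2 h, and at 15151% and 13945% at 6 h. Hbb, another beta-globin gene, was at 19.2%, 29.9%, 34.9% and 759%. These genes are close copies of each other, so their probes may share transcripts. Alas2, the heme synthesis enzyme of red cell precursors, was at 8.87%, 9.67%, 12.8% and 107.4%, and Ahsp, a chaperone of alpha globin, at 15.9%, 12.7%, 23.0% and 77.7%. In all of these the 6 h array stood apart, and the other 3 lay within 2-fold of each other.

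Of 14 measured blood cell markers, 10 were at least 2-fold above air at 6 h and 1 below, against 3.67% and 3.4% of all genes tested. S100a8 and S100a9 were the 2 above air at 0 and at 2 h. The list's median was 0.18, 0.33 and 1.51, and its summed signal was 1180%, 1664%, 1960% and 30145% in air and at 0, 2 and 6 h. Most of the sum at 6 h came from Hbb-b1 (15151%) and Hba-a3 (13945%). Markers well above background numbered 10, 10, 10 and 14. Slc4a1, the anion exchanger of red cells, was dim in air and at least 5.82-fold above it at 6 h, and Pf4, of platelets, was at −0.50, 0.01 and 1.55. Ngp, a neutrophil granule gene, was well above background only at 6 h, whereas Camp, another, was at −0.53, −0.92 and −1.18. The T cell gene Cd3e, dim at 0 and 2 h and at −0.08 at 6 h, and the B cell gene Cd79a (0.24, 0.13 and 0.33) were not 2-fold above air at any hour. Cd52, a leukocyte surface gene dim in air, was at least 19.1-fold above air at 6 h, and Pou2f2, a lymphoid transcription factor gene, at least 5.07-fold. How much of the group growing above air moved with these blood cell markers was not tested.

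Robo3, a receptor that guides commissural axons, was at 2.72% in air, 2.52% at 0 h, 33.3% at 2 h and 56.9% at 6 h. It was thus 12.2- and 20.9-fold above air in the last 2 arrays, but its second probe was not well above background on any of the 4. Gpr160, an orphan receptor gene, was at 3.30%, 2.59%, 3.505% and 17.8%. Slc18a1, a vesicular monoamine transporter of endocrine cells, was at 19.9%, 12.7%, 55.4% and 69.5%. Ccl3, a chemokine of microglia and macrophages, was at 5.04% in air, 6.46% at 0 h, 23.0% at 2 h and 28.2% at 6 h. Dbp, a transcription factor driven by the circadian clock, was at 506%, 606%, 786% and 1268%; the labels give no clock time. Ptgdr, dim at 0 h, was at least 4.84-fold higher at 6 h than at 0 h and 2.25-fold above air; its second probe was well above background on 1 array only. Plag1 lay just inside the criteria (0.35, 0.89 and 1.35) and Cnksr2 just outside (0.01, 0.85 and 1.01). Only 12 of the genes growing above air had second probes well above background on all 4 arrays. Of those probes, 13 of 14 were higher at 6 h than at 0 h, 7 of them at least 2-fold. After quantile normalization 33.5% of the genes growing away from air were above it, with the authors' deposited log2 values 35.1%, and 46.7% here.

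Fading from below air were 36 genes (0.129%), 11 of them dim on some array, and the leading ones are known from the liver. G6pc1, the glucose-6-phosphatase of gluconeogenesis, probed at chr10:90403940-90403999 (rn4), was at 42.7% of the 75th percentile in air, 17.6% at 0 h, 19.4% at 2 h and 77.9% at 6 h. Apoc3 and Apoa2, apolipoprotein genes, were at 187% and 45.9% in air, at 69.3% and 19.1% at 0 h, at 79.6% and 25.5% at 2 h and at 289% and 78.5% at 6 h. In each the 0 h and 2 h arrays were below air and the 6 h array above it. Mup5, a major urinary protein gene of a family of close copies, was at 389%, 187%, 190% and 730%. Ugt2b and Ugt2b35, glucuronosyltransferase genes, were at 0.95 and 0.69 above air at 6 h after −1.30 and −1.35 at 0 h. Sult2a1, a sulfotransferase gene, was at 0.07 and Itih4, a plasma protein gene, at 0.46 at 6 h. The second Apoc3 probe gave −1.37, −1.23 and 0.63. Cenpa, dim at 0 h, was at least 4.64-fold below air there and 1.57-fold above it at 6 h, and Adh6, an alcohol dehydrogenase gene, was at least 2.06-fold below air at 0 h. Rexo4 lay just inside the criteria (−1.13, −1.12 and −0.11) and Akr1b7 just outside (−1.28, −0.60 and −0.45).

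While the other lists were chosen with earlier results of these data known, a list of 26 hepatocyte genes was written after these very values. It describes the group and supports nothing. Of 25 measured, 17 were at least 2-fold below air at 0 h and 16 at 2 h, with 0 above at either. At 6 h 5 were above and 0 below. Of all genes tested, 2.04% and 3.47% were below air at 0 and 2 h, and 3.67% were above it at 6 h. The median was −1.26, −1.09 and 0.61, and −0.77 at 12 h after 3000 ppm CO. The summed signal was 5848%, 3069%, 3313% and 8586% in air and at 0, 2 and 6 h, with 24 or 25 of the genes well above background on each array. Alb, the albumin gene, was at 2931%, 1805%, 1552% and 4518%, and Fgb, a fibrinogen chain, at 322%, 141%, 121% and 474%. Plg and C8a, plasminogen and a complement component, were counted as growing above air, at 1.498 and 1.36 at 6 h. The differences between the 4 arrays were thus shared by most of the list, and their source was not tested.

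**Figure D3:**
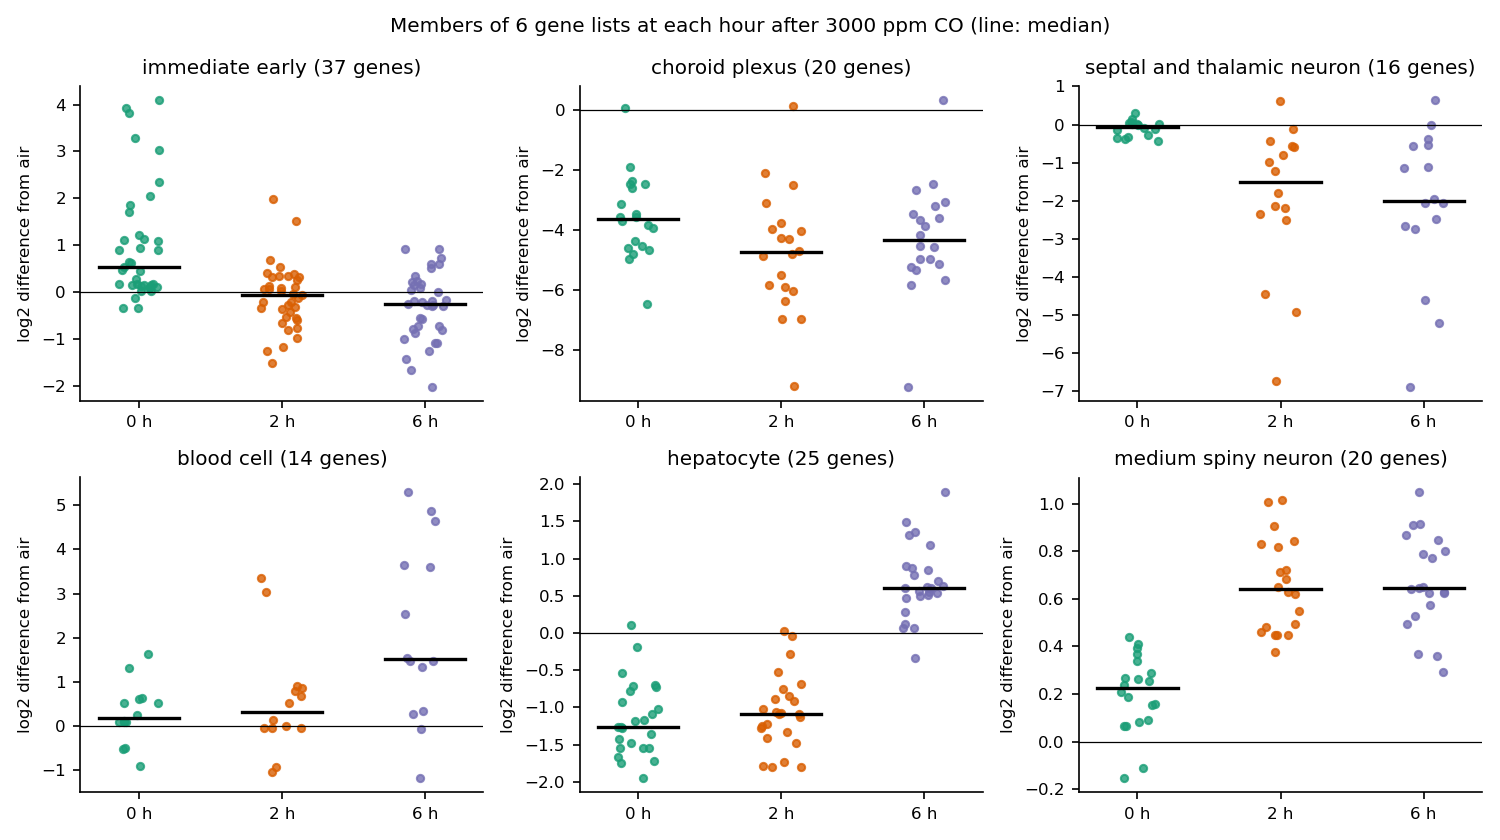
Log2 difference from air (vertical axis) of each measured member of 6 gene lists at 0, 2 and 6 h after 3000 ppm CO, 1 rat per hour, with the median as a line and points spread sideways for legibility. Immediate early genes are highest at 0 h (median 0.54), septal and thalamic markers lowest at 2 and 6 h (−1.51 and −2.01), and blood cell markers highest at 6 h (1.51).

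Among glucocorticoid-responsive genes, induced by the hormones of the stress response, the 2 h array was the highest. Their median was 0.13, 0.70 and 0.28, and 5 of 19 were at least 2-fold above air at 2 h against 1 at 0 h and 1 at 6 h. Of all genes tested, 2.03%, 2.55% and 3.67% were above air at 0, 2 and 6 h. Zbtb16, a zinc finger factor, was at 3.74% in air, 4.59% at 0 h, 26.9% at 2 h and 6.66% at 6 h. Map3k6 was at 28.4%, 48.1%, 118% and 38.1%, and Fkbp5, which restrains the glucocorticoid receptor, at 464%, 454%, 1101% and 776%. Mertk (1.19) and the metallothionein gene Mt2A (1.22) were the other 2 above air at 2 h. Cdkn1c was lower than air at all 3 hours (−1.95, −2.36 and −2.25), and Cdkn1a was at −0.17, −0.07 and −1.82.

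Hypoxia-inducible genes had medians of 0.11, 0.34 and 0.01, with 2, 1 and 0 of 23 at least 2-fold above air and 0 below at any hour. The median at 6 h was below 0 after quantile normalization (−0.01) and with the authors' deposited log2 values (−0.15). Over all genes tested, 2.03%, 2.55% and 3.67% were at least 2-fold above air at 0, 2 and 6 h. Counts this small are not read as results about the list. Slc2a1, through which glucose enters the brain, was at 909% in air, 1416% at 0 h, 2002% at 2 h and 1087% at 6 h. Ddit4, an inhibitor of mTOR, was at 63.6%, 140%, 96.1% and 53.8%, which put it among the genes fading from above air. Bhlhe40 was at 1.06 at 0 h, and Vegfa, the angiogenic growth factor, was within 2-fold of air at 0.21, 0.71 and 0.80. Genes of glycolysis on the list lay near air, with Pgk1 at −0.16, −0.08 and −0.34 and Ldha at −0.22, 0.34 and −0.07.

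The antioxidant and heme list stayed near air, with medians of 0.06, 0.05 and −0.01, and 1 of 21 at least 2-fold above air at 2 h and 1 at 6 h, both times Mt2A. At 2 h the median was −0.03 after quantile normalization. Hmox1, the heme oxygenase that itself releases CO, was at 34.2% in air, 35.3% at 0 h, 44.5% at 2 h and 50.4% at 6 h, within 2-fold of air throughout. Respiratory chain genes had medians of −0.09, 0.05 and −0.13, and 0 of 23 were 2-fold from air at any hour; the median at 2 h was −0.04 after quantile normalization. Inflammatory genes had medians of 0.11, 0.07 and 0.33 over 23 measured, with 2, 1 and 2 at least 2-fold above air. These were Ccl2 (1.18) and Cebpd (1.08) at 0 h, Ccl3 at 2 h, and Ccl3 and Il1a (dim in air, at least 2.50-fold) at 6 h. For comparison, 2.03%, 2.55% and 3.67% of all genes tested were above air at 0, 2 and 6 h.

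Genes of the integrated stress and unfolded protein responses had medians of −0.15, −0.29 and −0.48, and clock genes 0.17, 0.19 and 0.42. Mitotic genes had medians of 0.21, 0.51 and 0.39 with 0, 0 and 1 of 19 at least 2-fold above air. The shares of all genes tested above air were 2.03%, 2.55% and 3.67%. Microglial markers had medians of 0.00, 0.21 and 0.44; P2ry12 and Trem2, both microglial surface receptors, stood at 1.198 and 1.03 at 6 h. Endothelial and pericyte markers had medians of 0.27, 0.19 and 0.52, astrocyte markers 0.12, 0.18 and 0.15 and oligodendrocyte precursor markers 0.32, 0.03 and −0.05. Meningeal markers had medians of −0.15, 0.25 and −0.02, with Fmod (−2.61, −2.08 and −2.03) and Ogn (−2.12, −1.30 and −1.75) at least 2-fold below air at all 3 hours. The medians of microglia at 0 h, oligodendrocyte precursors at 2 and 6 h, striatal interneurons at 2 and 6 h and meninges at 6 h changed sign with the scaling. Medians this close to 0 are not read as differences.

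**Figure D4:**
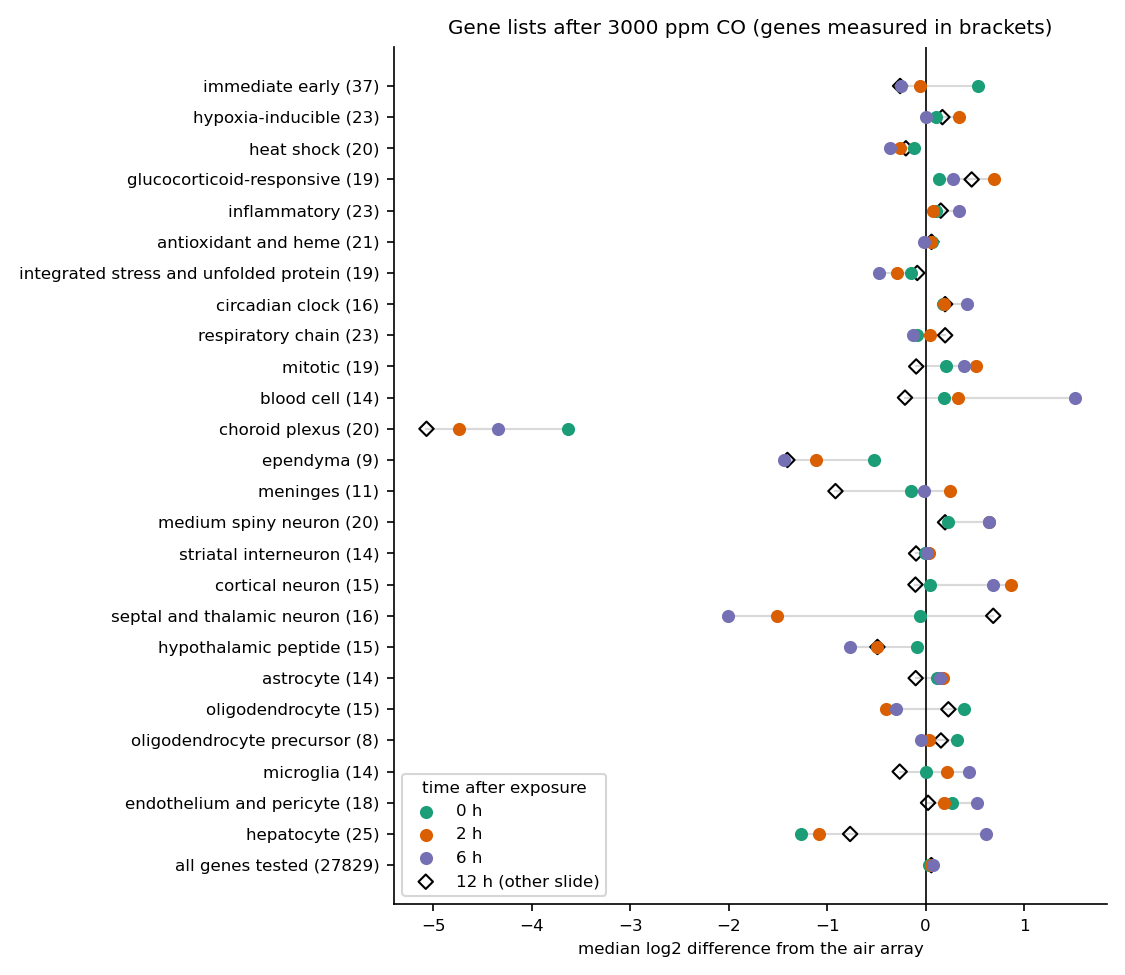
Median log2 difference from air (horizontal axis) of 25 gene lists and of all genes tested, at 0, 2 and 6 h after 3000 ppm CO (points) and at 12 h on another slide (diamonds), with the number of genes measured in brackets. Choroid plexus markers lie farthest from air, between −5.07 and −3.63, and septal and thalamic, blood cell and hepatocyte lists are spread widest over the hours.

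A limma fit of the 3 exposed arrays against the air array had 2 residual degrees of freedom, with the hours in the residual and the air array assumed to vary like the others. It passed 77 genes at an adjusted p of 0.05, 75 lower (0.27%) and 2 higher (0.00719%), and 2774 genes had an unadjusted p under 0.05. Of the 77, 65 were not well above background on any exposed array, so their size was not measured, and the 2 higher ones have no gene symbol. Cox8b differed from air by −3.81 ± 0.16 (SE) log2 units (limma adjusted p = 0.0333), Col8a1, a short-chain collagen gene, by −3.72 ± 0.18 (limma adjusted p = 0.0333) and Aqp1 by −4.40 ± 0.26 (limma adjusted p = 0.0419). All 3 were lower on 3 of 3 exposed arrays. Sulf1, a heparan sulfatase gene, and Col8a2 were the other genes with a symbol that passed and were measured on all 4 arrays (−2.66 ± 0.14 and −2.20 ± 0.14, limma adjusted p = 0.0353 and 0.0471).

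The count depended on the setting. It was 78 to 90 with other background correction, normalization or probe averaging or with the 12 h array added, and 23 with dim values raised to the floor. Among the 24703 genes well above background on all 4 arrays, limma passed 0 (0.0%; lowest adjusted p = 0.0886), with 2510 at an unadjusted p under 0.05. It also passed 0 with a trended and robust prior and 0 when any 1 of the exposed arrays was left out. A fit of the change per hour, with 1 residual degree of freedom, passed 0 genes in limma, with 1488 at an unadjusted p under 0.05 and a lowest adjusted p of 0.907. The groups of genes above are therefore descriptions of 4 rats.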

How the data were processed

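One-colour Agilent whole rat genome arrays measured striatal RNA labelled with Cy3. Per the file headers, Agilent Feature Extraction 10.7.3.1 made the deposited processed signal, an intensity with background subtracted and spatial trend removed and no scaling between arrays. The deposited mean and background signals are intensities as scanned, and flags mark spots well above background, saturated or outlying. The authors' own table for the series is deposited on a log2 scale; array by array it correlated with the log2 processed signal at 0.9999 or more, and each column's median was 0; how the authors made them is not given in the sources used here.

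Here log2 processed signal minus each array's 75th percentile was used. Outlying spots were left out, repeated spots averaged and 14 of 41012 probes dropped. Names were updated from a RefSeq table (GRCr8) by accession (17506 probes), symbol (3095) or synonym (553), and 19844 kept the file's name. For 4667 genes with several probes, the one brightest over 12 arrays was used. A dim value was raised to the lowest signal counted as well above background on its array, which makes a fold a bound. Limma took values as measured, two-sided with Benjamini-Hochberg adjustment over all genes tested; other counts have no test, since each group had 1 array.

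Named genes, from those with a symbol measured on all 4 arrays, were the 3 largest differences per hour and direction, the 8 genes with the largest smallest difference over the 3 hours, and the 8 with the largest difference between 6 h and 0 h per time pattern; the 3 largest bounds per pattern and members of lists could be named too. Members, the 24 lists and the hepatocyte list were chosen with earlier results of these data known. A gene that the rule named is not reported here. Or9i16, Upk1b, Ocm, Col8a2 and Sulf1 were named after their values were seen. The pattern rules and limma were tested on simulated data. Alternatives were normexp background correction (offset 50), quantile normalization, the deposited log2 values, the mean over probes, only genes well above background on all 4 arrays, the median of 12 arrays as reference, 1.5- and 3-fold thresholds, a trended and robust prior, adding the 12 h array, and leaving out each exposed array. Leaving out arrays in the all-hours counts, raised values in limma and list medians under each scaling were added after seeing the data. Tools were Python 3.11.15, numpy 2.4.6, pandas 2.3.3, matplotlib 3.10.9, R 4.3.3 and limma 3.58.1.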

Additional observations from a re-analysis of the deposited data

Results flagged for a closer look

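Hspa1b was marked because the 2 CO doses pointed in opposite directions against the same air array at 0, 2 and 6 h. After 3000 ppm CO all 3 arrays were above air, the nearest to 0 at 1.14, and after 1000 ppm CO all 3 were below it, the nearest to 0 at −0.85. The 3000 ppm arrays shared the slide and scan session of the air array and the 1000 ppm arrays did not, so dose and slide cannot be told apart here, and the difference was not tested.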

How the results depend on the processing

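Among named genes, all 81 differences checked kept their direction and their side of 2-fold under quantile normalization and the deposited log2 values, as did the 63 that could be had from genes well above background on all 4 arrays; 4 came under 2-fold with the mean over probes and 15 with normexp background correction. With the median of the 12 arrays as reference 10 came under 2-fold and 6 changed sign: Clcf1 at 0 h (−0.14), Mfsd10 at 6 h (−0.26), Col7a1 at 0 h (−0.084), Gpd1 at 2 h (−0.24), Cox8b at 6 h (0.061) and Col24a1 at 0 h (−0.10). Genes 2-fold from air at 0, 2 and 6 h numbered 374, 606 and 646 with normexp, and 481, 941 and 1005 with the median reference. They numbered 2971, 4586 and 5518 at 1.5-fold, 395, 617 and 618 at 3-fold, and 714 at 0 h among genes well above background on all 4 arrays. Genes higher and lower at all 3 hours numbered 15 and 161 with normexp, 603 and 765 at 1.5-fold and 9 and 186 at 3-fold; lower ones numbered 206 with the background filter and 17 with the median reference. Leaving out 1 exposed array gave 125 to 322 higher and 403 to 712 lower. Growing above and below air were 81 and 68 genes with normexp, 902 and 594 at 1.5-fold and 43 and 83 at 3-fold. Fading from above and below were 15 and 11 with normexp, 247 and 108 at 1.5-fold and 66 and 7 at 3-fold. With the background filter 46 faded from above, and with the median reference 23 from below. Of genes past 2-fold or in the all-hours groups, the share above air went from 50.0% to 35.6% with normexp at 0 h, from 51.9% to 41.6% at 6 h and from 18.8% to 8.52% at all 3 hours, and of the fading genes from 79.3% to 57.7%. With the median reference these shares were 79.4%, 69.5% and 85.2%, and 64.8% in place of 42.4% at 2 h. The limma count of 77 was 0 with the background filter, 0 with a trended and robust prior, 0 to 0 without any 1 exposed array and 23 with dim values raised to the floor, and 78 to 90 under the other settings run. Normexp moved the median of all genes to 0.12 and 0.15 at 2 and 6 h. Normexp with an offset compresses dim signals, and fewer genes enter the background filter; the other causes were not tested. With the median reference the choroid plexus medians were −0.66, −1.82 and −1.33. List medians at least 0.1 from 0 against air that turned were, at 0 h, those of ependyma (to 0.48), heat shock (0.14), integrated stress (0.02), astrocytes (−0.04) and medium spiny neurons (−0.20), and at 6 h that of glucocorticoid-responsive genes (−0.14). Of those nearer to 0, hypothalamic peptides (0.25) and septal and thalamic neurons (0.14) at 0 h, immediate early genes (0.17) and oligodendrocyte precursors (−0.13) at 2 h and hypoxia-inducible genes (−0.13) at 6 h turned and ended over 0.1 from 0. No paired analysis was possible because each group has 1 array and the labels carry no replicate numbers.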

Other observations

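Several genes took values near 2 levels over the 12 arrays, with no order by exposure or time. Mfsd10 was between 1.41 and 2.33 above air on 10 of the 11 exposed arrays and at 0.15 right after 1000 ppm CO. Sgca was 2.00 to 2.44 above air on 5 arrays (the 0 h array of the higher CO dose, the 0, 2 and 12 h arrays of the lower one, and 6 h after 5% O2), and −0.01 to 0.31 on the other 6. Zscan25 stood at 2.13 right after 3000 ppm CO, at 2.59 on the 2 h array of 1000 ppm CO, and from −0.42 to 0.34 elsewhere. Fcrl2, a gene of the Fc receptor-like family, was high on the first 2 arrays after 3000 ppm CO (2.83 and 3.39) and 2 h after 5% O2 (2.63), and below air on the other 8. These genes were picked out after their values were seen, and the source of the pattern was not tested.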
